A study of Rattus norvegicus with 17 samples.

Results

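A group of 150 genes was chosen as higher in every remnant kidney than in every control kidney. By the same choice they varied less across the remnant kidneys than the other genes raised in this way. The members were chosen from the count table of 23487 Ensembl rat identifiers by their level, as log2 CPM, the log2 of a gene's share of the counts of its library, with TMM scaling, a correction for library composition. A gene qualified if its operated mean was 1 log2 CPM or more, every operated library lay above every control library, and the means differed by 1 or more. These criteria left 1107 genes, of which the 150 with the smallest SD across the operated libraries were taken and 957 were not. Since the comparison of the groups chose the members, their differences between the groups are given as a description with no test. Of all genes tested, 13.4% had every operated library above every control library.

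Kidney RNA came from male Wistar Han rats, with 1 library per rat. SNx denotes 12 rats with sub-total nephrectomy, in which part of the right kidney was resected and the left kidney was removed at a later operation. NoOp denotes 5 control rats, which the study describes as sham-operated and the sample labels as not operated. The labels give no age, and no rat carried a transgene or received a drug according to the sources used here. In the larger experiment of the study most operated rats did not reach its functional threshold. The labels do not say which, so all 12 libraries were kept.

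After loss of most of the functioning renal mass, the remaining nephrons filter at raised pressure, and glomeruli scar, tubules atrophy and the interstitium fills with matrix and leukocytes. Infiltrating T cells, B cells and macrophages bring their own transcripts into whole-kidney RNA. Interferon and NF-kB signalling also switch on antigen presentation and adhesion genes in the resident tubular, endothelial and mesenchymal cells. In bulk tissue, more cells of a type and more RNA per cell cannot be told apart.

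Total counts were 19210434 to 30784070 in the SNx libraries and 30454170 to 43876369 in the NoOp libraries. The 150 genes had a mean of 50.4 to 28107 counts per SNx library, with a median of 423. Counting error alone would give a median SD of 0.0701 on the log2 scale, well under the SD that was observed. Proximal tubule markers, led by Lrp2 (megalin, the endocytic receptor of that segment), were detected in every library, and none of the 9 was at 0 in either group. Their summed level was 17999 to 22154 CPM in NoOp and 1480 (SNx 1) to 13687 CPM (SNx 11) in SNx.

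Slc3a1, which encodes the heavy subunit of the brush border transporter for cystine and dibasic amino acids, was taken as the gauge of severity. It is a transcript of the same libraries and not a functional or histological score. NoOp levels were 11.67, 11.86, 12.04, 11.96 and 11.86 log2 CPM in NoOp 1 to NoOp 5. Among the operated kidneys it was lowest in SNx 1 (7.24) and SNx 5 (8.10), with SNx 10 (8.74) and SNx 6 (8.80) near each other, ahead of SNx 8 (9.58). Next came SNx 7 (9.94), followed by SNx 3 (10.14), SNx 12 (10.22) and SNx 2 (10.53), and closest to the controls were SNx 9 (11.07), SNx 4 (11.12) and SNx 11 (11.22). The groups did not overlap, and the SNx libraries spanned 3.98 log2 units, with SNx 1 and SNx 5 farthest from the controls and SNx 11, SNx 4 and SNx 9 nearest to them.

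The SD of the 150 genes across SNx was 0.153 to 0.308 log2 CPM, with a median of 0.271, against a median of 0.490 in the other 957 genes and 0.295 in all genes tested. The gap to the other raised genes was fixed by the choice of the smallest SDs and is no finding. The spread was near that of a gene in general. Their difference between SNx and NoOp was 1.001 to 2.49, with a median of 1.27 (2.41-fold), and the median of the other 957 was 1.81. At the limit, Fam46a and Msantd3 were the last genes taken, with SDs of 0.30695 and 0.30753. The first genes left out, ENSRNOG00000022760 and ENSRNOG00000046309, had SDs of 0.30757 and 0.30802, so the edge of the group marks no gap. The SD across SNx exceeded that across NoOp in 111 of the 150 genes (74.0%), with a median NoOp SD of 0.183, as it did in 82.0% of all genes tested and 83.4% of the other 957. A symbol could be given to 95 of the genes, and 55 are known here only by identifier.

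**Figure D1:**
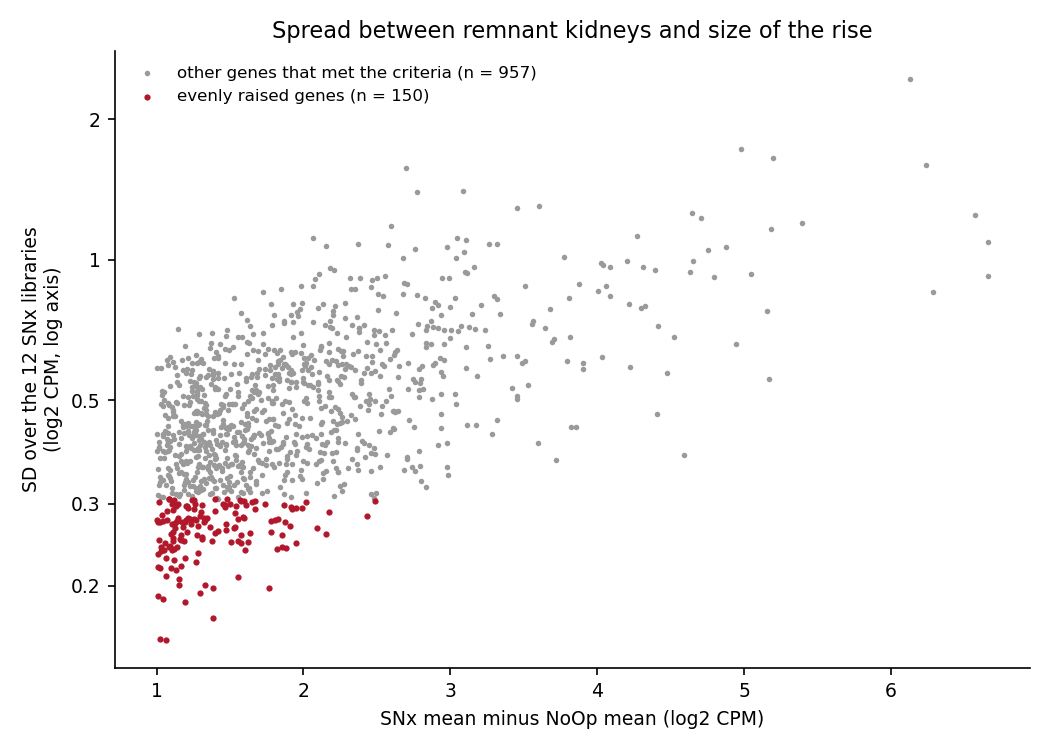
SD over the 12 SNx libraries (log2 CPM, log axis) against the SNx mean minus the NoOp mean (log2 CPM) for the 1107 genes that met the criteria, 1 point per gene. The 150 evenly raised genes (red) lie at the bottom by construction, at SDs up to 0.308, and their differences end at 2.49 while those of the others reach 6.66.

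The named genes with the least spread belong to unlike functions. Cnp, a cyclic nucleotide phosphodiesterase best known from myelin, was at 3.86, 4.16, 4.17, 4.13 and 4.09 log2 CPM in NoOp 1 to 5 and at 5.15 (lowest, SNx 11), 5.50 (median) and 5.67 (highest, SNx 1) in SNx. Gm2a, the lysosomal activator protein for breakdown of the ganglioside GM2, was at 5.91, 5.93, 5.69, 5.87 and 5.71 in NoOp and at 6.49, 6.80 and 7.13 in SNx. Tmem229b, a transmembrane protein, was at 2.69, 2.93, 2.88, 2.59 and 2.48 in NoOp and at 3.59, 4.07 and 4.29 in SNx. In all 3 the lowest SNx library stood clear of the highest control, by 0.98 for Cnp, 0.56 for Gm2a and 0.67 for Tmem229b. Dock11, an activator of the small GTPase Cdc42, was at 4.04, 3.57, 3.21, 3.26 and 2.95 in NoOp and at 4.38, 4.78 and 5.13 in SNx. Hmgb2l1, an HMG-box protein, was at 3.14, 3.06, 2.94, 3.06 and 3.14 in NoOp and at 3.86, 4.27 and 4.51 in SNx. Mcm6, a subunit of the helicase that unwinds DNA for replication, was at 2.63, 2.46, 2.70, 2.32 and 2.40 in NoOp and at 3.57, 3.87 and 4.12 in SNx. For Dock11 the controls were more scattered (SD 0.419, n = 5) than the operated kidneys (SD 0.198, n = 12), and NoOp 1 came within 0.33 of the lowest SNx library. The SNx SDs of the 6 genes ran from 0.170 for Cnp to 0.201 for Mcm6.

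Of the 6 named members with the largest differences, 4 (Map4k1, Sash3, Dapp1 and Arhgap30) stood in the list of leukocyte signalling and adhesion. Map4k1, a kinase of blood cells that dampens antigen receptor signals, was at 2.83, 2.55, 2.74, 2.85 and 2.62 in NoOp and at 4.44 (SNx 11), 4.86 and 5.30 (SNx 7) in SNx. Sash3, an adaptor of lymphocytes, was at 1.81, 1.94, 1.85, 1.88 and 1.54 in NoOp and at 3.44 (SNx 8), 4.07 and 4.21 (SNx 7) in SNx. Dapp1, a phosphoinositide-binding adaptor of B cells, was at 2.18, 1.87, 2.21, 1.85 and 1.43 in NoOp and at 3.46 (SNx 6), 3.94 and 4.47 (SNx 7) in SNx. SNx 7, a kidney in the middle of the Slc3a1 range, was the highest library in each of these 3 genes. Arhgap30 was at 3.57, 3.54, 3.43, 3.52 and 2.87 in NoOp and at 4.90 (SNx 6), 5.43 and 5.75 (SNx 7) in SNx. Arhgap11a, a gene of dividing cells, was at 1.93, 1.76, 1.59, 1.32 and 0.42 in NoOp and at 2.88 (SNx 9), 3.32 and 3.91 (SNx 12) in SNx. Irf8, a transcription factor of myeloid and B cells, was at 4.23, 4.32, 4.29, 4.44 and 4.03 in NoOp and at 5.77 (SNx 6), 6.26 and 6.56 (SNx 10) in SNx. No control reached an SNx library in any of the 6, and the differences in mean were 2.17 for Map4k1, 2.15 for Sash3, 2.02 for Dapp1, 1.99 for Arhgap30, and 1.95 for both Arhgap11a and Irf8.

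**Figure D2:**
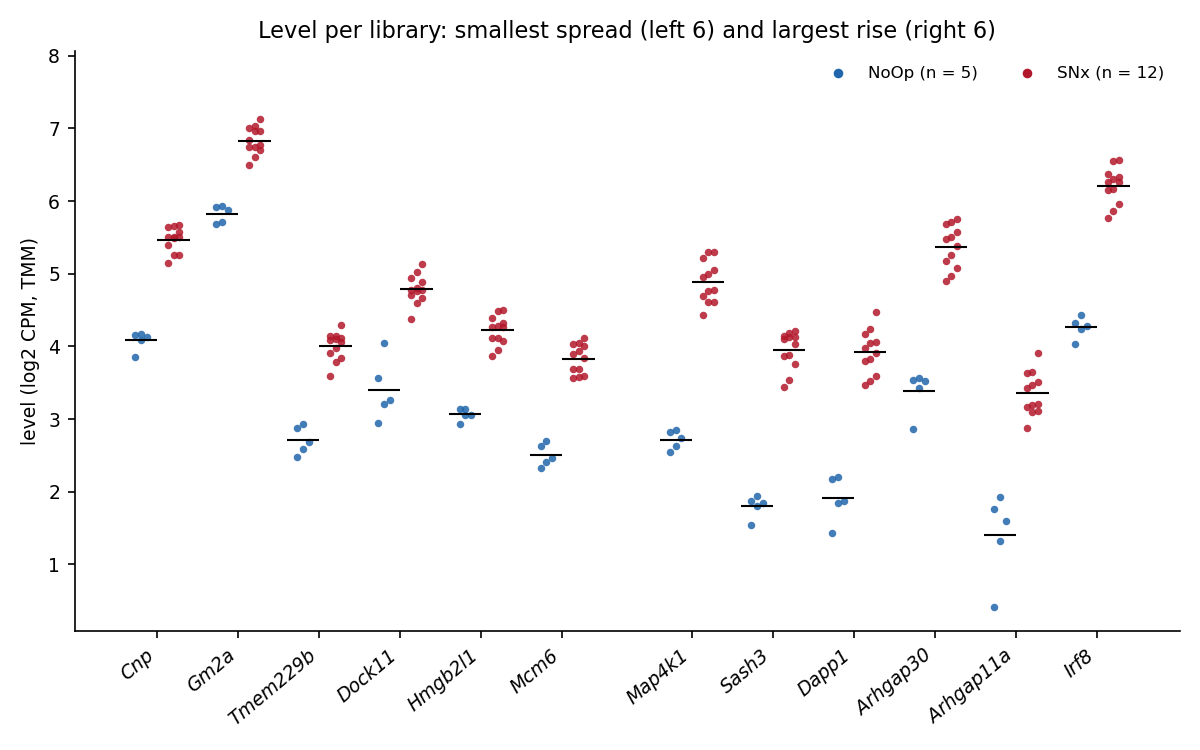
Level in each library (log2 CPM, TMM scaling) of the 6 named genes with the smallest SNx spread (left) and the 6 with the largest rise (right), with NoOp in blue (n = 5) and SNx in red (n = 12). Black bars are group means, and in all 12 genes every red point lies above every blue point, as the choice of genes required.

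By read abundance, which is not corrected for transcript length, the highest named genes were a pair of matrix genes and a signalling gene. Col4a2, a basement membrane collagen chain, was at 8.83, 8.89, 8.73, 8.90 and 8.86 in NoOp and at 9.77 (SNx 9), 10.09 and 10.65 (SNx 1) in SNx. Emilin1, a glycoprotein of elastic fibres, was at 7.06, 7.07, 6.99, 6.88 and 7.03 in NoOp and at 7.68 (SNx 11), 7.93 and 8.69 (SNx 1) in SNx. Pea15, a phosphoprotein that binds ERK kinases, was at 6.07, 6.10, 6.10, 6.12 and 6.12 in NoOp and at 6.84 (SNx 10), 7.08 and 7.60 (SNx 1) in SNx. SNx 1, the kidney with the lowest Slc3a1, was the highest in all 3, and Pea15 had the tightest controls of the group (NoOp SD 0.020, n = 5).

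Leukocyte signalling and adhesion, which was also the longest list, gave the most members by count, 14 of the 48 listed genes. Of all 2001 identifiers with a symbol, 95 were members, and of the other 957 raised genes 512 had a symbol. Shares of members were not compared between lists by a test. Besides Map4k1, Sash3, Dapp1 and Arhgap30 these were the leukocyte PI3-kinase subunits Pik3cg and Pik3cd, the kinase Syk, the lipid phosphatase Inpp5d, the adaptors Dok2 and Apbb1ip, the actin regulators Was and Nckap1l, Arhgap9 and the integrin chain Itgae. Their differences ran from 1.30 for Syk to 2.17 for Map4k1, with a median of 1.69. Of the 7 general leukocyte markers, Lcp1 (an actin bundler) and Laptm5 (a lysosomal membrane protein of blood cells) were members, at differences of 1.92 and 1.85. Tcf7, a transcription factor of T cells, was the only member of the 7 T cell markers, at 1.78. None of the 8 macrophage, 5 B cell or 6 fibroblast markers was taken, and lists this short say little by their lack of members. Spi1, the myeloid transcription factor, was a member with a difference of 1.65.

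Genes of interferon response and antigen presentation gave 11 members of the 37 listed genes with an identifier. They hold the transcription factors Irf1, Irf5 and Irf8 and Ciita, the master regulator of MHC class II genes. They also hold the 3 inducible catalytic subunits of the immunoproteasome (Psmb8, Psmb9, Psmb10), the peptide transporter subunit Tap1, the tapasin relative Tapbpl, the ISG15-conjugating enzyme Ube2l6 and Parp10. Psmb8, Psmb9 and Psmb10 differed by 1.85, 1.48 and 1.54, and Tap1 by 1.33. Irf1 had a NoOp level of 4.62 ± 0.112 log2 CPM (SD, n = 5) and an SNx level of 6.14 ± 0.265 (SD, n = 12). The group also held 4 of the 25 genes of NF-kB and TNF receptor signalling with an identifier. These were the TNF receptors Tnfrsf1a (1.11) and Tnfrsf1b (1.59), Nfkb2 (1.02), an NF-kB subunit precursor, and Icam1 (1.32), the endothelial and epithelial ligand of leukocyte integrins.

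The promoters of Irf1, Tap1, Nfkb2 and Irf8 are shown as examples from the interferon and NF-kB groups. They were picked because their windows hold the letters searched for, and do not represent those groups. In the NF-kB group Icam1, Tnfrsf1a and Tnfrsf1b had no NF-kB-type match. In the interferon group only Tap1 and Psmb10 had an IRF-type match. The sequences are the 250 bases before the annotated start, from RefSeq (GRCr8), 5′ to 3′ on the strand of the gene. Matches to the STAT, IRF and NF-kB motifs are in capitals, and those to the other motifs searched are left in lower case. Capitals mark a STAT-type match (TTCNNNGAA) and an NF-kB-type match in Irf1, an IRF-type match (GAAA and GAAA with 2 bases of any kind between them, read here on the opposite strand) and an NF-kB-type match in Tap1, an NF-kB-type match in Nfkb2, and a pair of STAT-type matches in Irf8. The windows are chr10:38417685-38417934 on the plus strand for Irf1, chr20:4668544-4668793 on the minus strand for Tap1, chr1:255108124-255108373 on the plus strand for Nfkb2 and chr19:65699034-65699283 on the plus strand for Irf8.
Irf1: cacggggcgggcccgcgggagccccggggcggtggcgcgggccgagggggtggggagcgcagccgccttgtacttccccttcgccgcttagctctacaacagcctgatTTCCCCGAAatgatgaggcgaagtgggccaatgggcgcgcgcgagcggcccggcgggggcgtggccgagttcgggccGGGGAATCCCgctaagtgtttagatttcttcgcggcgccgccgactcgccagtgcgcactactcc
Tap1: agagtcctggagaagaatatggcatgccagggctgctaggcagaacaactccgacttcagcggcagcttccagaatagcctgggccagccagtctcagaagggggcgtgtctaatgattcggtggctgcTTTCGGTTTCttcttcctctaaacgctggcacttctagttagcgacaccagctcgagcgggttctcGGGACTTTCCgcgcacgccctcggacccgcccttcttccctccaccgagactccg
Nfkb2: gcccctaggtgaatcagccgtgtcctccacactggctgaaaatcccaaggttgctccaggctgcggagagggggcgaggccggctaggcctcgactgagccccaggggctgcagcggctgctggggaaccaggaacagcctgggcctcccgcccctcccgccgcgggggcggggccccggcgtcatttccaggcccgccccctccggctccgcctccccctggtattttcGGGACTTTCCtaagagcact
Irf8: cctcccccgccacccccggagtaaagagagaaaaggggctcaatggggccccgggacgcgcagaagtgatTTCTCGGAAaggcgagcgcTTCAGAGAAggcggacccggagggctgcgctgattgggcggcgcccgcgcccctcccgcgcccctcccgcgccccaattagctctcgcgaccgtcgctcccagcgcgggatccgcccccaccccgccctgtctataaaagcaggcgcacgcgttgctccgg
Of the 95 named members, 77 had a promoter in the table, 2 of them through an older symbol. Both strands of each window were searched, and windows could hold more than 1 motif. An NF-kB-type match stood in 14 of the 77 (18.2%), against 6.33% of all 33469 promoters of that length, 6.99% of the 21851 of protein-coding genes and 12.2% of the 344 found for the other 957 genes. STAT-type matches stood in 6 of 77 (7.79%, 7.67% of all) and IRF-type matches in 4 (5.19%, 3.41% of all). The GC box GGGCGG stood in 64.9% of the members' windows, 30.5% of all and 51.2% of those of the other 957 genes. GC content moved the same way, at 61.5% in the members' windows, 58.1% in those of the other 957 genes and 54.2% in those of protein-coding genes, and its part in these shares was not tested. For AP-1 (TGANTCA) the share was 5.19% against 6.34% of all, for ETS (CCGGAAG) 5.19% against 7.27%, for TEAD (GGAATG) 7.79% against 12.1%, for the CCAAT box 24.7% against 34.0% and for the TATA box (TATAAA) 6.49% against 12.9%.

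The remaining lists gave 4 members or fewer each. Of the extracellular matrix list Col4a2 and Emilin1 were taken, 2 of 37. The lysosome and endosome list gave Gm2a, Laptm5, Rab31 (a small GTPase of vesicle traffic) and Ctsz (a cathepsin), 4 of 25, at differences of 1.001 to 1.85. The actin and focal adhesion list gave Cnn2, Tes and Pdlim1, 3 of 39, and the cell cycle list gave the helicase subunits Mcm5 and Mcm6, 2 of 44. The same 2 genes were the members in the list of proliferation markers, 2 of 6. Among the transcription factors listed, Spi1 and Tgif2, a repressor of TGF-beta responses, were taken, 2 of 31. The lists of tubule segments, endothelium, podocytes, contractile cells, urothelium, secreted ligands, complement and epithelial injury gave no member. Of these, endothelium and podocytes had an identifier for 1 of 5 genes each, collecting duct and distal tubule for 8 of 13 and complement for 10 of 17. The lists of contractile cells and urothelium held 4 genes each with an identifier. The lack of members in such lists says little, and the 55 genes without a symbol could not be placed in any list. In all, 44 of the 95 named genes stood in a list and 51 in none. The latter include Apaf1, the scaffold of the apoptosome, Il16, a T cell chemoattractant, Scarb1, the HDL receptor, Slc39a6, a zinc importer, Hfe, the regulator of iron uptake, and Cntf, a cytokine of the nervous system. Of the genes without a symbol, ENSRNOG00000046469 had the smallest SD of all members (0.153) and ENSRNOG00000025604 the next (0.154). ENSRNOG00000033693 and ENSRNOG00000016995 had the largest differences of the unnamed genes, 2.49 and 2.43.

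The libraries did not take part evenly. Averaged over the 150 genes, the level above the NoOp mean was largest in SNx 1 (1.66), SNx 7 (1.56) and SNx 5 (1.52) and smallest in SNx 11 (1.05), SNx 4 (1.19) and SNx 8 (1.20). In linear terms the average ran from 2.07-fold in SNx 11 to 3.17-fold in SNx 1. For the other 957 genes the same average ran from 1.43 in SNx 11 to 2.72 in SNx 1. SNx 1 was the highest SNx library in 67 of the 150 genes, SNx 7 in 30 and SNx 5 in 18, whereas SNx 11 was the lowest in 62, SNx 8 in 29 and SNx 4 in 24. The order was not that of Slc3a1 throughout. SNx 7 and SNx 8 both lie in the middle of the Slc3a1 range and had one of the highest and one of the lowest means, and SNx 6, among the 4 lowest in Slc3a1, had a mean of 1.29.

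**Figure D3:**
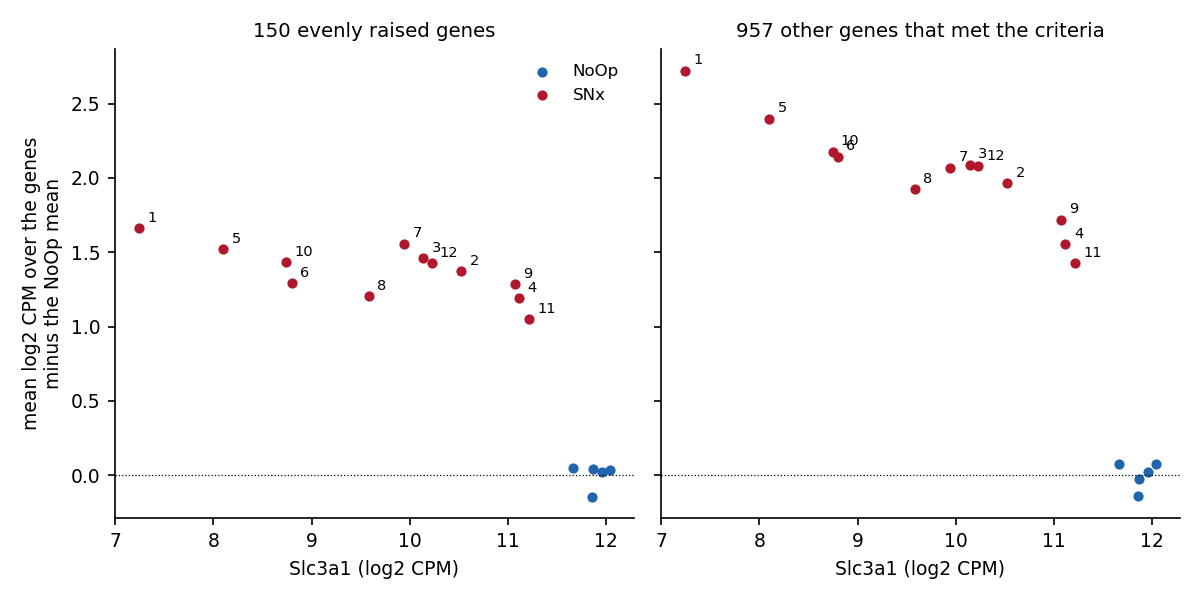
Mean log2 CPM over the 150 evenly raised genes (left) and over the other 957 genes (right), each minus its NoOp mean, against log2 CPM of Slc3a1, with 1 point per library (NoOp blue, SNx red, SNx replicate numbers beside the points). The members' mean spans 1.05 to 1.66 across SNx and that of the other genes 1.43 to 2.72, and both are highest in SNx 1 and lowest in SNx 11.

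The relation of the 150 genes to severity was examined within the 12 SNx libraries, by the slope of each gene on log2 CPM of Slc3a1 (edgeR's quasi-likelihood test, 15477 genes, Benjamini-Hochberg adjustment, FDR < 0.05). A negative slope means a higher level where Slc3a1 is lower. The slope passed the test in 65 of the 150 genes (43.3%), all of them negative, and in 50.7% of all genes tested, 25.2% with a negative slope and 25.6% with a positive one. No member had a positive slope at an unadjusted p under 0.05 in that fit, nor at FDR < 0.05 with DESeq2 or limma-voom. The slope estimate was below 0 in 135 of the 150 genes (90.0%), beside 92.0% of the other 957 genes and 51.5% of all genes tested, with a median of -0.119 log2 units per log2 unit of Slc3a1 (jackknife SE 0.0309 over 12 libraries). Among the other 957 genes, 633 (66.1%) passed with a negative slope and 5 with a positive one, with a median slope of -0.270.

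The size of a slope was limited by the way the genes were chosen. With the largest SD taken, 0.308, and an SD of Slc3a1 of 1.27, a straight line cannot be steeper than 0.242, so the smaller slopes of the group are no finding. The slopes come from the same SNx levels whose SD chose the genes, so the count that passed is not independent of the choice. Negative slopes were also common among the other 957 genes, which met the same criteria for a rise, so nothing particular to the 150 genes is read from the sign. At the median slope, the level changed by -0.473 log2 units over the whole SNx range of Slc3a1. This is a 1.39-fold rise from the kidney with the highest Slc3a1 to that with the lowest. For the other 957 genes the same figure was 2.10-fold. Taking out the line on Slc3a1 left a median SD of 0.216 in the group. Gene by gene, the median share of the SD that was left was 86.6% in the group, 70.7% in the other 957 genes and 77.3% in all genes tested.

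A missed threshold does not show that a gene is free of severity. The intervals were set beside a slope of 0.251, which gives a 2-fold change over the SNx range of Slc3a1. The choice by SD held every member's slope under that value and bears on the width of the intervals too, with a median of 0.220 in the group and 0.337 in the other 957 genes, so an interval within the limit is a description and no evidence that severity has no effect. The interval lay within the limit for 95 of the 150 genes and for 80 of the other 957. Of the 85 members that did not pass the test, 74 had such an interval, and the interval of the other 11 went past the limit. The interval held 0 in 77 genes.

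**Figure D4:**
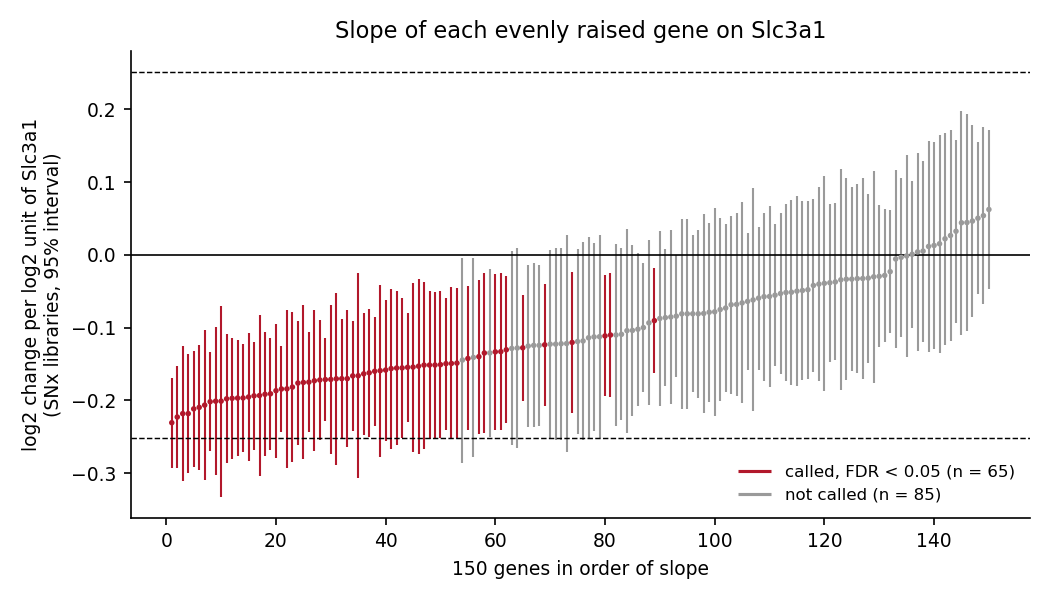
Slope of each of the 150 genes on Slc3a1 within SNx (log2 change per log2 unit, points) with its 95% interval (lines), in order of slope, red where FDR < 0.05 (n = 65) and grey otherwise (n = 85). Dashed lines mark the slope of 0.251 in either direction that stands for a 2-fold change over the Slc3a1 range, and no red point lies above 0.

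Nfkb2 had the smallest p-value among the named members. Its level was 5.38, 5.31, 5.59, 5.44 and 5.52 in NoOp and 5.92 (SNx 11), 6.43 and 6.89 (SNx 1) in SNx, and its slope was -0.231 (SE 0.0288, edgeR adjusted p = 2.40e-05). Mob3a, a kinase co-activator, had a slope of -0.223 (SE 0.0324), with controls at 4.18, 4.11, 4.15, 4.28 and 4.17 and SNx levels of 5.10 (SNx 11), 5.44 and 6.27 (SNx 1). Icam1 had a slope of -0.197 (SE 0.0346), with controls at 5.03, 5.02, 4.85, 5.27 and 4.62 and SNx levels of 5.93 (SNx 4), 6.23 and 6.80 (SNx 1). In these 3 the kidney with the lowest Slc3a1 was the highest, and one of those with the highest Slc3a1 was the lowest. Slc39a6, the zinc importer, had a slope of -0.184, Plekho1, a membrane-binding adaptor, -0.171, Emilin1 -0.202, Atp8b2, a phospholipid flippase, -0.212, and Scarb1 -0.194. For the 8 genes the adjusted p of edgeR's test was between 2.40e-05 and 0.000433, and each of them passed in all 12 fits that left out 1 SNx library. In the whole group, 32 genes passed in the main fit and in all 12 such fits. In the single fits 43.3% to 51.0% of all genes passed in either direction, and 21.3% to 25.7% with a negative slope. The share of all genes that passed in every one of them is not given here, so nothing particular to the group is read from the 32. Without SNx 1, the kidney with the lowest Slc3a1, 40 of the 150 genes passed the test, all with a negative slope. Of all genes, 43.3% did so in either direction and 21.4% with a negative slope. Within the 6 SNx libraries whose title numbers fall in a lower range, 29 genes passed. Within the 6 of the upper range 14 did, again all negative. Of all genes, 31.0% and 26.6% passed there in either direction, and 13.9% and 11.9% with a negative slope. Of the 8 genes, Icam1, Mob3a, Emilin1 and Atp8b2 were not past the threshold in the upper range alone, nor Scarb1 in the lower. With Col3a1, a fibrillar collagen, as the gauge in place of Slc3a1, Atp8b2 alone of the 8 was past it, and Nfkb2, Mob3a, Icam1, Slc39a6, Plekho1, Emilin1 and Scarb1 were not.

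Other genes had a narrow interval that held 0. Gm2a had a slope of -0.028 (95% interval -0.119 to 0.062) and Dock11 one of -0.064 (-0.158 to 0.030). Pik3cg, the leukocyte PI3-kinase subunit, was at 3.70, 3.56, 3.17, 3.33 and 3.02 in NoOp and at 4.54 (SNx 8), 4.97 and 5.15 (SNx 1) in SNx, with a slope of -0.055 (-0.153 to 0.042). Cerk, which phosphorylates ceramide, was at 4.56, 4.64, 4.77, 4.71 and 4.69 in NoOp and at 5.44 (SNx 8), 5.82 and 6.22 (SNx 1) in SNx, with a slope of -0.086 (-0.180 to 0.008). Cerk did pass the test with total count as a covariate and with Col3a1 as the gauge. Among members with a slope above 0, Stk17b had the highest, 0.062 (-0.048 to 0.172). Fam46a was at 0.044 (-0.105 to 0.194) and Lcp1 at 0.004 (-0.132 to 0.140). None of these 3 passed.

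In the Slc3a1 fit, where 25.2% of all genes and 66.1% of the other 957 passed with a negative slope, the members were counted by function. In interferon response and antigen presentation 8 of 11 members had a negative slope past the threshold, and in NF-kB and TNF receptor signalling 3 of 4. In leukocyte signalling and adhesion 6 of 14 passed, in extracellular matrix 2 of 2, in actin and focal adhesion 1 of 3, among transcription factors 1 of 2, and in the lists of leukocyte markers, T cell markers, lysosome and cell cycle 0 of 2, 0 of 1, 0 of 4 and 0 of 2. Of these 8 distinct genes, Mcm6 had an unadjusted p under 0.05 in edgeR's quasi-likelihood test and was called by DESeq2, and limma-voom called none of them. Median slopes were -0.152 for interferon response, -0.196 for NF-kB, -0.116 for leukocyte signalling, -0.179 for extracellular matrix, -0.102 for actin, -0.131 for transcription factors and -0.049 for the lysosome, beside -0.007 over all genes tested. Differences between these lists were not tested, and shares over genes with a symbol, from which the lists come, are not given here. Of the 65 genes that passed, SNx 1 was the highest library in 45, and of the 85 that did not, SNx 7 was the highest in 28 and SNx 1 in 22. Since SNx 1 had the lowest Slc3a1, a gene highest there tends to a negative slope. This split is therefore partly set by the fit.

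Leukocyte transcripts also varied between the remnant kidneys. The 7 leukocyte markers, of which Lcp1 was the most abundant and none was at 0 in a group, summed to 113, 104, 103, 117 and 71.1 CPM in NoOp 1 to 5 and to between 255 (SNx 6) and 482 CPM (SNx 7) in SNx, with 279 in SNx 8 and a median of 392. The 7 T cell markers, led by Cd4, summed to 41.8, 35.6, 40.9, 35.0 and 25.7 CPM in NoOp and to between 85.7 (SNx 8) and 155 CPM (SNx 7) in SNx. The 8 macrophage markers, led by Csf1r, ran from 248 (SNx 8) to 706 CPM (SNx 1), and the 6 fibroblast markers, led by Col1a1, from 1666 (SNx 8) to 11102 CPM (SNx 1). SNx 1 was also the highest in the 4 contractile markers, led by Tagln (525 CPM, against 114 to 311 in the other SNx libraries), in Mcam, the endothelial marker that could be read (176 against 73.0 to 106), and in the 4 urothelium markers, led by Krt5 (84.2, with 63.8 in SNx 10 and 0.169 to 17.8 in the others). SNx 1 thus stood apart in markers of several cell types, while SNx 7 and SNx 8 marked the high and low ends of the T cell markers. Leukocyte and T cell sums include 3 of the 150 genes. The part of these cell types in the level of the 150 genes was not tested.

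**Figure D5:**
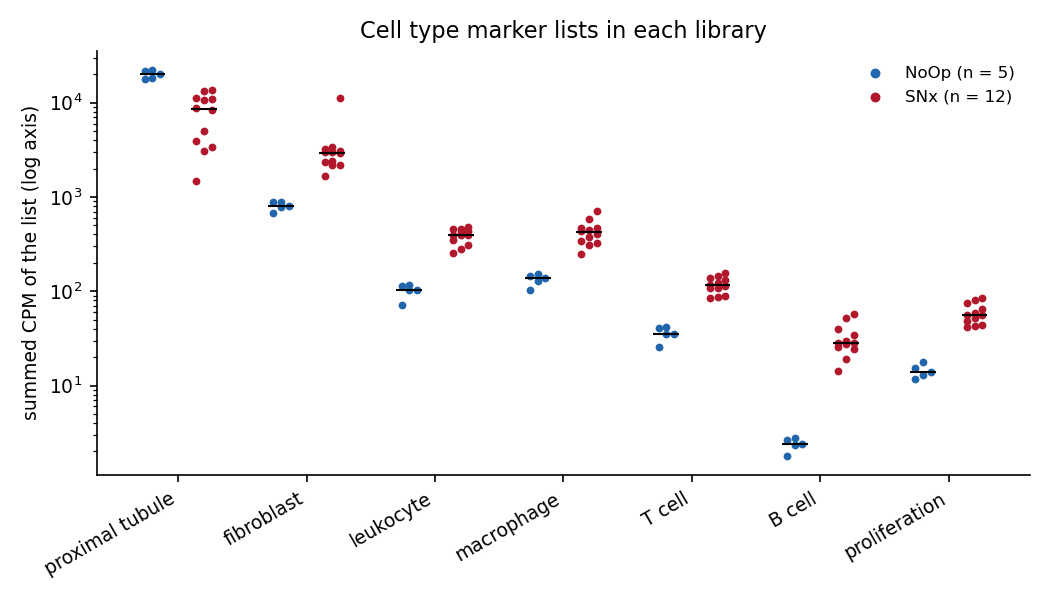
Summed CPM (log axis) in each library of the proximal tubule, fibroblast, leukocyte, macrophage, T cell, B cell and proliferation marker lists. NoOp is in blue (n = 5), SNx in red (n = 12), with black bars at the medians. Lists of collecting duct and distal tubule, endothelium, contractile cells and urothelium, which overlapped between the groups, and of podocytes are not drawn. Leukocyte, macrophage, T cell, B cell, fibroblast and proliferation sums of every SNx library lie above those of every NoOp library, and the proximal tubule sum lies below.

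The genes of the same lists that were not members give the setting of the group. In the comparison of all 12 SNx with the 5 NoOp libraries (edgeR's quasi-likelihood test, 15438 genes, FDR < 0.05), 30.3% of all genes rose and 27.7% fell, with a median log2 fold change of 0.02. All 34 other genes of leukocyte signalling and adhesion rose, with a median of 1.73, as did 25 of 26 other interferon and antigen presentation genes (1.06), 16 of 21 other NF-kB and TNF receptor genes (1.32, with 4 lower) and all 42 other cell cycle genes (2.38). In the Slc3a1 fit, 18 of those 34 leukocyte signalling genes, 18 of the 26 interferon genes, 13 of the 21 NF-kB and TNF receptor genes and 28 of the 42 cell cycle genes had a negative slope past the threshold, beside 25.2% of all genes. A positive slope passed in 1 of the interferon genes, 3 of the NF-kB and TNF receptor genes and none of the leukocyte signalling and cell cycle genes. Of the remaining lists that held members, a negative slope passed in 0 of the 6 other T cell markers (median slope 0.003), 1 of the 5 other leukocyte markers (-0.027) and 8 of the 21 other lysosome and endosome genes, of which 6 had a positive one. For actin and focal adhesion it was 26 of 36, for extracellular matrix 23 of 35 (with 1 positive), for transcription factors 24 of 29 and for proliferation markers 2 of 4. Coro1a, an actin regulator of leukocytes, rose by 2.12 (SE 0.176) with a slope of 0.008 (SE 0.0717), and Parp14, an interferon-induced ADP-ribosyltransferase, rose by 1.59 (SE 0.148) with a slope of -0.217 (SE 0.0376). Itgb7, an integrin chain of lymphocytes, rose by 3.07 with a slope of 0.081 (SE 0.0898), and the T cell receptor constant gene Trbc2 rose by 2.73 with a slope of 0.150 (SE 0.0702). Neither slope passed the test, at adjusted p = 0.473 and 0.0909 in edgeR's fit. By contrast Ltbp2, a matrix protein of elastic fibres, rose by 3.99 with a slope of -0.397 (SE 0.0656), and Cd44, the hyaluronan receptor, by 2.76 with a slope of -0.324 (SE 0.0509). The lists were written with earlier results of these libraries known and are not independent of them. They draw only on the 2001 identifiers with a symbol, which also hold 512 of the other 957 raised genes. The shares over all genes are therefore an unlike background, and the high counts may be partly set by which genes have a symbol. Shares over genes with a symbol alone are not given here.

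Evenness was also read in kidneys that had not been used to choose. Of the ranges of title numbers, the lower holds 6 SNx libraries and all controls and the upper the other 6 SNx libraries. When the rule was applied to the 6 SNx libraries of the lower range, the genes chosen had a median SD of 0.233 there and 0.302 in the other 6, against 0.424 in the other 6 for genes that qualified but were not chosen. In 142 of them all 6 kidneys of the upper range lay above every control, and in the remaining 7 they did not. With the ranges exchanged, the 150 genes chosen had a median SD of 0.235 in the upper range and 0.376 in the lower, against 0.514 for the genes not chosen, and 143 of them stayed above every control. The same 5 controls entered both readings and had already set which genes qualified, so high counts above every control were likely beforehand. Over all genes tested, 13.4% had every SNx library above every control. The matching share of the qualifying genes that were not chosen is not given here. Nothing particular to the chosen genes is therefore read from the 142 and the 143. In kidneys not used to choose, the medians of 0.302 and 0.376 lay above the 0.295 of all genes tested across all 12 SNx libraries. The median of all genes within 6 libraries is not given here. The SDs therefore show only that the chosen genes spread less than the other qualifying genes. Of the 150 genes, 95 were chosen again from the lower range alone and 67 from the upper range alone.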

How the data were processed

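Kidney RNA of 12 SNx and 5 NoOp rats was depleted of ribosomal RNA, made into strand-specific libraries and sequenced paired-end. The submitters' processing notes name Salmon, limma and the rn6 build, with no versions. The authors deposited estimated counts per gene, held as whole numbers, which were rounded before the tests. They also deposited normalized log2 values (described in the methods as voom values) for part of the genes, used only as an alternative for the choice of members. Whole-series tables repeat the per-library ones and were not used. For 2001 identifiers the annotation columns of the study's supplement, as used here, give a symbol.

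Levels are log2 CPM with TMM factors and a prior count of 2 (edgeR 4.0.16, R 4.3.3). CPM is a share of a library, and levels of different genes are not corrected for length. Sh2d2a, Vav1 and Il7r were to be left out of the group, and none of them was among the 150. Slopes and group differences were fitted with glmQLFit and glmQLFTest after filterByExpr, two-sided, with FDR < 0.05. The slope fit left Slc3a1 out of the genes tested. Intervals are 95%. Named genes are those with the smallest spread (6), the largest difference (6), the highest level (3), the smallest p-values in the slope fit (8) and the narrowest intervals that hold 0 (4), with up to 2 genes by p-value from each list. The members and lists were chosen with earlier results of these data known. The 2-fold limit on slopes, the spread about the line and the choice in 1 range of title numbers were added after seeing the data. As alternatives the fits were repeated with DESeq2 (1.42.0) and voom from limma (3.58.1), with other scaling and filters, other gauges of severity, total count or title number range as a covariate, each range alone and each library left out. The scripts were tested on simulated data. The plots used matplotlib 3.10.9 under Python 3.11.15. P-values weigh an effect against the spread between rats, from which the main fits do not separate differences between the ranges of title numbers.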

Additional observations from a re-analysis of the deposited data

Results flagged for a closer look

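Of the 29 genes whose 5 control values were examined for a library far from the rest, 3 had one, where chance would give 1.45. Cnp was at 3.86 log2 CPM in NoOp 1 and at 4.09 to 4.17 in the other controls. Arhgap30 was at 2.87 in NoOp 5 and at 3.43 to 3.57 in the others. Slc39a6 was at 3.31 in NoOp 2 and at 3.45 to 3.50 in the others. In each case the outlying control lay below the others, away from the SNx libraries. The choice of members required every control to lie below every SNx library. The direction and the count are therefore partly set by it, and nothing is read from them.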

How the results depend on the processing

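The sign of the median slope held under all 25 alternatives, and no result for a single gene reversed. The median slope of the 150 genes was -0.225 with Dpp4 as the gauge, -0.213 with Col3a1 (sign turned), -0.181 with total count as a covariate, and -0.126 to -0.0943 with 1 library left out. Genes of the group that passed numbered 18 with Col3a1, 29 in the lower and 14 in the upper range of title numbers alone, and 40 (without SNx 1) to 70 with 1 library left out. Over all genes the calls numbered 426 with Col3a1 (2.72%) and 5103 with total count added (32.6%). They numbered 4789 and 4091 in the lower and upper range alone, and 6681 to 7881 with 1 library left out. With total count added, 62 of the 150 genes passed. In the main fit the group's share (43.3%) lay below that of all genes (50.7%). With Col3a1 and with total count it lay above. Both directions are counted here, and all members that passed had negative slopes. Counting negative slopes alone, the share of all genes was 25.2% in the main fit, 2.37% with Col3a1 and 14.7% with total count. The group's share lay above that of all genes in each of these fits. Of the other raised genes, 66.1% passed with a negative slope in the main fit, 14.2% with Col3a1 and 54.4% with total count. The group's share was below that of these other raised genes in each fit. The ranges alone hold fewer libraries, and for the lower counts with Col3a1 and total count the cause was not tested. Under the remaining alternatives the members that passed stayed within 1.5 times the count of 65.

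The choice itself was less stable. Of the 150 genes, 81 were chosen again with library size alone, 82 by median absolute deviation, 48 by SD divided by the difference, 19 with a minimum difference of 0.5, 95 and 67 from the lower and upper range alone, and 106 to 144 with 1 library left out. Scaling by library size alone raised the median log2 fold change of all genes from 0.02 to 0.23 and the share of higher calls from 52.2% to 74.6%. SNx against NoOp calls over all genes were 7914 to 9438 with 1 library left out. Of the results for single genes in the slope fit, 286 were unchanged in their call, 12 were lost (7 with Col3a1, 4 in the upper and 1 in the lower range alone) and 2 gained (both for Cerk). Of those in the group comparison, 1049 were unchanged and 20 lost, for Mcam, Tp63 and Krt5.

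No paired analysis was possible because the labels tie no SNx rat to a NoOp rat. The library numbers used here only name the libraries and pair no rats.

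Limits are few kidneys, RNA integrity, and controls that all carry title numbers of the lower range. For RNA integrity the study gives a range over all samples that reaches low values. It was not given per library in the sources used here. Levels are relative to the library, so a change in the share of tubular transcripts and a change in the genes themselves were not told apart. Total counts were mostly lower in SNx than in NoOp (SNx 9 lay above NoOp 5), and their part was tested only as a covariate within SNx.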
